A study of Mus musculus with 115 samples.

Results

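Oocytes of db/db mice were compared with wild type oocytes in the same measured state, using single-cell libraries of hand-picked mouse ovary cells. The comparison used 11 libraries (9.57% of those in the series), 4 from db/db oocytes and 7 from wild type oocytes. The db/db libraries were labelled b92, b93, b124 and b125, and the wild type libraries b3, b7, b8, b13, b21, b58 and b59. A cell was kept with at least 1000 genes and 3000 UMIs, which left 194 db/db oocytes and 461 wild type oocytes. A UMI is a molecular tag that counts each captured RNA molecule once. UMIs were summed over the cells of a library, so that the library was the unit of every test.

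The wild type libraries were selected on measured values. Another 5 wild type oocyte libraries, b39, b45, b46, b56 and b57 with 342 cells, were left out because their oocytes were in another state. The Pearson correlation over log2 gene levels of each left-out library with the 7 kept wild type libraries had a median of 0.74 to 0.77, and the kept libraries correlated with each other at a median of 0.94 to 0.98. In the median cell of library b58, the kept library with the highest mitochondrial share, 5.21% of UMIs were mitochondrial. The lowest such share among the left-out libraries, in library b46, was 5.52%. The db/db libraries correlated with the kept wild type libraries at a median of 0.93 to 0.95. These values describe the choice of libraries and were not tested.

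The groups differed in more than the Lepr allele. The db/db libraries carry the strain label C57BL/6 and the wild type libraries the strain label C57BL/6-129Sv, and all db/db libraries have higher numbers than all wild type libraries. Genotype, strain and the order of libraries therefore cannot be told apart. Further libraries were read beside the comparison, namely 3 libraries of oocytes from ob/ob mice of strain C57BL/6 (b102, b134 and b144), 30 libraries of db/db somatic cells and 31 of wild type somatic cells. The ob/ob libraries were selected on measured values as well: 1 more, b107 with 27 cells, was left out, and its median cell had 33.4% mitochondrial UMIs, against 3.87%, 5.64% and 8.97% in the 3 kept. The labels give no age and no diet, and name no animal, so the tests take the spread from library to library as their error, and that spread may be technical. In all groups ovaries were treated with collagenase, and single cells were picked with needles under a stereomicroscope.

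The db allele disrupts Lepr, the receptor of leptin, a hormone that fat tissue secretes. It acts on the brain to limit feeding, and db/db mice, like ob/ob mice that lack leptin itself, become obese, diabetic and infertile. A growing oocyte stores RNA, mitochondria and lipid for the early embryo, stays arrested in meiosis until ovulation and exchanges metabolites and signals with granulosa cells through gap junctions. A fully grown oocyte transcribes little, so much of its RNA is a store laid down during growth.

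The sums held 4365254, 19719043, 7040765 and 5346408 UMIs in db/db libraries b92, b93, b124 and b125, and 10814344 to 17827995 UMIs in the wild type libraries. The median cell of the db/db libraries held 15061, 147913, 86107 and 32550 UMIs, and that of the wild type libraries 47311 to 190363 UMIs. Averaged over libraries, the median was 70408 ± 59861 UMIs in db/db and 94334 ± 52621 UMIs in wild type (SD, n = 4 and 7; two-sided exact permutation test, p = 0.485). Genes per cell were 5119.5 ± 2221.8 in db/db and 6340.8 ± 1055.5 in wild type (exact permutation p = 0.255). The mitochondrial share of UMIs was 3.75% ± 1.68 in db/db and 3.67% ± 1.07 in wild type (exact permutation p = 0.897). Every kept wild type library had a lower share than every left-out one. The choice of libraries thus favoured likeness in this share, and its p cannot show likeness. With all 12 wild type libraries the wild type mean was 8.59% ± 7.17. UMIs per UMI of the ERCC spike-in, which is added in a fixed amount and so tracks the RNA captured per cell, were 420 ± 266 in db/db and 393 ± 298 in wild type (exact permutation p = 0.848). After Benjamini-Hochberg adjustment over these 4 measures each p was 0.897. The groups overlapped in all 4 measures, and differences within the wide spread between libraries were not detectable. Without b93 the db/db minus wild type difference in genes per cell was -2229.5 (exact permutation p = 0.0333, adjusted p = 0.133), against -1221 with all 11 libraries. Library b92 had the fewest UMIs per cell, the fewest genes and the fewest UMIs per spike-in UMI, 61.1, among the 11 libraries. A few cells held much of each sum, with 5 cells giving 26.7% to 74.4% of the UMIs in db/db libraries and 33.8% to 65.1% in wild type libraries.

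**Figure D1:**
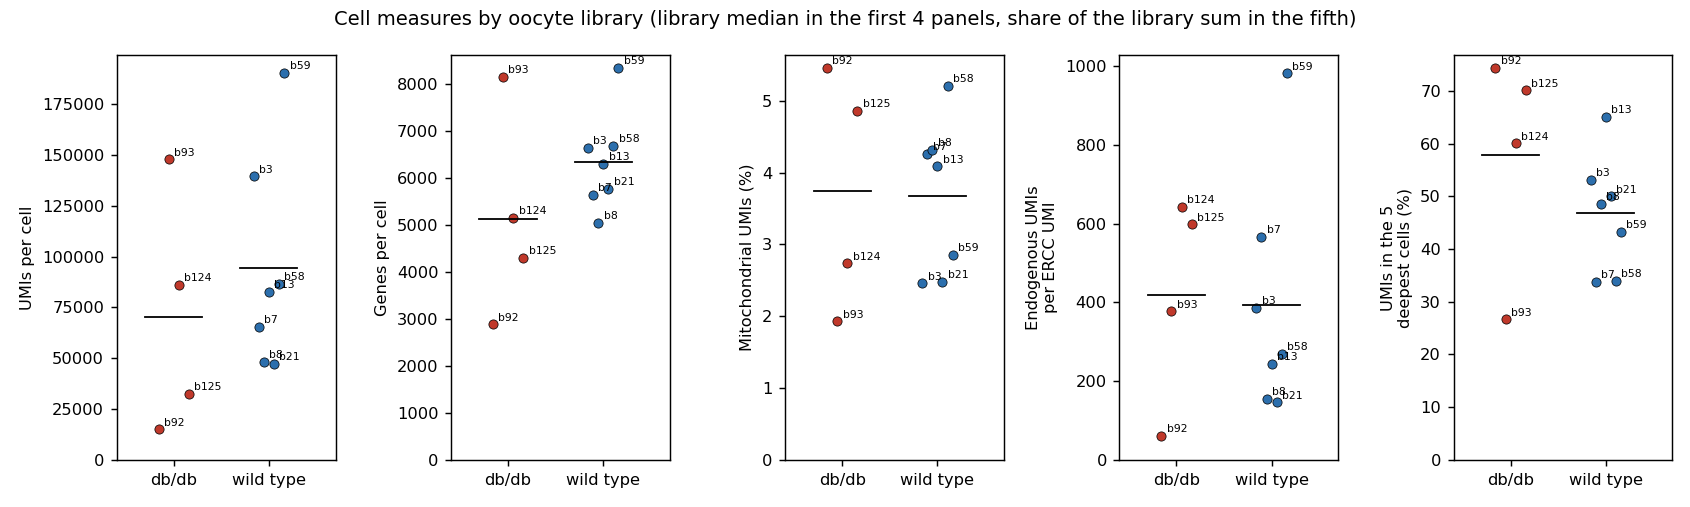
Cell measures of the 4 db/db and 7 wild type oocyte libraries, 1 point per library, with the median per cell of UMIs, genes, mitochondrial percent and UMIs per ERCC UMI, and the percent of library UMIs in the 5 deepest cells. The groups overlap in every panel, and db/db library b92 is lowest in UMIs, genes and UMIs per spike-in UMI.

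The oocyte label held in the data. Summed over 16 oocyte markers, such as the zona genes Zp1, Zp2 and Zp3, the level was 28300 to 38020 CPM in db/db and 28490 to 46440 CPM in wild type. CPM is the field's usual scale for a gene's share of all UMIs in a library. All 194 db/db cells had more UMIs of oocyte markers than of all somatic marker lists together. Every cell of the wild type libraries did too, except in library b59, where 97.7% of cells did. Granulosa markers summed to 374 to 563 CPM in db/db and 366 to 490 CPM in wild type. Stroma markers were at 4.01 to 11.4 CPM in db/db and 7.5 to 109.7 CPM in wild type, and surface epithelium markers at 2.52 to 4.49 CPM in db/db and 3.51 to 24.8 CPM in wild type. Endothelium, macrophage and luteal markers overlapped between the groups at no more than 71.6 CPM in any library. The part of stroma and surface epithelium RNA in the differences was not tested.

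Lepr itself had 10.9, 6.81, 6.32 and 4.11 CPM in the 4 db/db libraries and 11.2 to 34.1 CPM in wild type, with a wild type median of 25.5 CPM. The groups did not overlap, and the log2 fold change of db/db over wild type was -1.68 ± 0.34 (SE; edgeR quasi-likelihood test, Benjamini-Hochberg adjusted p = 0.00417). The ob/ob libraries had 25.2 ± 3.05 CPM (SD, n = 3). The left-out wild type libraries had 0.575 to 8.96 CPM, so that with all 12 wild type libraries Lepr no longer passed (adjusted p = 0.405). A count of UMIs per gene does not show whether the transcript carries the db change. Lep had 3 UMIs in all db/db oocytes and 5 UMIs in all wild type oocytes, at or near the floor of 3 UMIs, and was not tested.

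Of 12922 genes tested, 1228 (9.5%) passed an adjusted p of 0.05, with 570 (4.41%) higher and 658 (5.09%) lower in db/db oocytes. The libraries of the groups did not overlap for 1109 genes (8.58%), of which 835 were among those that passed. The median log2 fold change was -0.05 over all genes tested and 1.23 in size over the genes that passed. Large changes were more often falls than rises, since 16.6% of the genes that fell and 3.16% of those that rose did so by more than 3 on the log2 scale. From the sums alone, less RNA of a gene in every cell and fewer cells with that RNA cannot be told apart. For some genes the share of cells with a UMI is therefore given below. Counts were also simulated as independent libraries with the dispersions of this same fit. In them the test found 27% of genes changed by 1 on the log2 scale and 78% of those changed by 2. There 1.87% of its calls were false. Strain, order of libraries, shared animals and cell state were not simulated, so that share does not give the false share among the 1228 genes.

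The count rested on the libraries used. With all 12 wild type libraries 1.08% of 13070 genes passed, 39 of them higher (0.298%) and the others lower (0.78%). Without db/db library b92, b93 or b124 the counts were 656, 763 and 793, and without library b125 the count was 1284. When each cell was thinned to 10000 UMIs, so that deep cells no longer dominated, 653 of 5455 genes passed, including 25 of 25 of the leading genes still tested. Of the 650 genes called in the main fit and tested after thinning, 417 passed again in the same direction. In limma, run on mean CPM over cells, 281 of the 1221 genes that passed were higher, or 23%, against 46.4% in edgeR, and the median over all genes was -0.23. Of the 1228 genes called in edgeR, 672 passed in limma in the same direction. Of the 30 leading genes described next, Mettl7a2 was the exception in losing its call when 1 library was left out, without db/db library b92 (adjusted p = 0.0636).

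**Figure D2:**
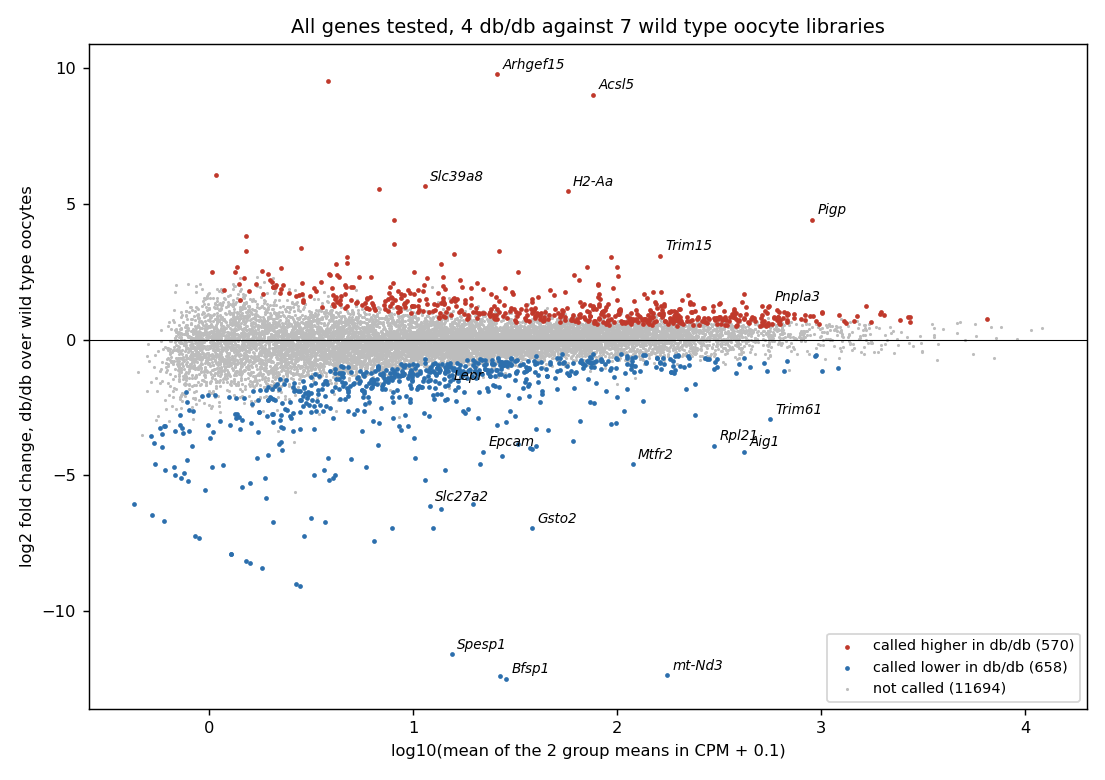
Log2 fold change of db/db over wild type oocytes (vertical axis) against mean level on a log10 scale (horizontal axis) for all 12922 genes tested, with 570 genes that passed higher in red and 658 lower in blue. Large falls outnumber large rises, and the points of Bfsp1 and Spesp1, which had 0 UMIs in db/db, are drawn at fitted values that are not bounds.

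The 15 leading rises were the largest among genes that passed, did not overlap between groups and averaged at least 20 CPM in the higher group. Pigp, a subunit of the enzyme that starts the synthesis of glycosylphosphatidylinositol (GPI) membrane anchors, was counted at high levels in every db/db library. It had 2121, 1352, 1749 and 1639 CPM in db/db, against 59.8 to 115.2 CPM in wild type with a median of 83.2 CPM. The rule required no overlap, and every db/db library was far above every wild type library. The log2 fold change was 4.40 ± 0.20 (SE, adjusted p = 3.8e-10), and ob/ob oocytes had 60 ± 11.1 CPM. After each cell was thinned to 10000 UMIs, 99.4% of 177 db/db oocytes and 52.2% of 418 wild type oocytes had a Pigp UMI (unthinned 99% and 80%).

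Acsl5 and Arhgef15 were nearly undetected in wild type oocytes. Acsl5, a long-chain acyl-CoA synthetase that activates fatty acids, had 210.4, 55.4, 151.2 and 188 CPM in db/db libraries and 0 to 0.574 CPM in wild type libraries with a median of 0.249 CPM (log2 fold change 9.0 ± 0.48, adjusted p = 2.0e-09). After thinning, 38.4% of db/db and 0.239% of wild type oocytes had an Acsl5 UMI (unthinned 63.9% and 4.99%). Arhgef15, a guanine nucleotide exchange factor known from endothelial cells, had 53.1, 63.3, 70.5 and 19 CPM in db/db libraries. In wild type it had 0 to 0.185 CPM, 5 UMIs in all (log2 fold change 9.76 ± 0.54, adjusted p = 2.0e-09). The summed endothelium markers were 23.6 to 41.5 CPM in db/db and 20.2 to 32.6 CPM in wild type. In ob/ob oocytes Acsl5 had 0.224 to 1.46 CPM and Arhgef15 0 to 0.366 CPM, so the high level was seen in the db/db libraries and in neither other genotype.

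H2-Aa, which encodes the alpha chain of a major histocompatibility class II molecule, had 117.8, 154, 52.3 and 121.8 CPM in db/db libraries and 1.54 to 4.64 CPM in wild type libraries with a median of 2.32 CPM (log2 fold change 5.45 ± 0.32, adjusted p = 5.7e-09). Its ob/ob level was 1.82 ± 0.154 CPM. The partner chain H2-Ab1, the invariant chain Cd74 and the class II activator Ciita were too low in these oocytes to be tested. Macrophage and leukocyte markers, a cell type that carries class II molecules, summed to 18.9 to 70.8 CPM in db/db and 21.6 to 71.1 CPM in wild type. Slc39a8, a zinc and manganese importer, had 19.4, 47.9, 3.79 and 17.4 CPM in db/db and 0 to 1.33 CPM in wild type (log2 fold change 5.64 ± 0.70, adjusted p = 5.0e-05). The Slc39a8 log2 fold change was 4.92 without b93 and 6.27 without b3. As the rule of choice required, neither gene overlapped between db/db and wild type libraries.

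Trim15, of the tripartite motif family of ubiquitin ligases, averaged 289 ± 115.4 CPM in db/db and 33.9 ± 5.56 CPM in wild type (SD, n = 4 and 7; log2 fold change 3.09 ± 0.22, adjusted p = 9.2e-08). Manba, the lysosomal enzyme beta-mannosidase, averaged 166 ± 37.7 CPM in db/db and 20.4 ± 6.51 CPM in wild type (log2 fold change 3.02 ± 0.24, adjusted p = 2.3e-07). The 2 genes differed in ob/ob oocytes, where Trim15 had 55.5 ± 8.11 CPM and Manba 0.506 ± 0.375 CPM. Manba was thus highest in db/db, lower in wild type and close to undetected in ob/ob. No pair of these groups overlapped, which the rule required for db/db and wild type. Ndufaf6, an assembly factor of respiratory complex I, averaged 168 ± 21.3 CPM in db/db and 33.5 ± 10.9 CPM in wild type, and Anxa2, a calcium-dependent membrane-binding annexin, 107.1 ± 37.7 CPM in db/db and 23.2 ± 13.2 CPM in wild type. Gsta2, a glutathione transferase with close relatives in the genome, averaged 54.8 ± 8.66 CPM in db/db and 9.86 ± 1.43 CPM in wild type.

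The remaining rises were Ccpg1os (3.27), Tox3 (2.66), Ccdc28a (2.65), Cmtm8 (2.05) and S100pbp (1.97 on the log2 scale). Ccpg1os lies on the strand opposite to Ccpg1, and the use of strand in counting is not given in the sources used here, so reads of the 2 genes may not be separable. For Tox3, a nuclear protein with an HMG box, the ob/ob libraries were also high. It averaged 172 ± 83.9 CPM in db/db and 141.4 ± 52.5 CPM in ob/ob, against 27.3 ± 9.01 CPM in wild type, and db/db did not pass against ob/ob (adjusted p = 0.969). Cmtm8, a membrane protein of the MARVEL type, was alike in this, with 129.3 ± 36.4 CPM in db/db and 82.6 ± 20.3 CPM in ob/ob, against 31.1 ± 18.7 CPM in wild type. The left-out wild type libraries were high as well and overlapped db/db. Tox3 had 119.1 to 249.6 CPM there and Cmtm8 111.8 to 130.8 CPM. Tox3 (adjusted p = 0.624), Cmtm8 (0.612), Gsta2 (0.0775) and Ndufaf6 (0.087) no longer passed with all 12 wild type libraries, and the other 11 rises did.

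**Figure D3:**
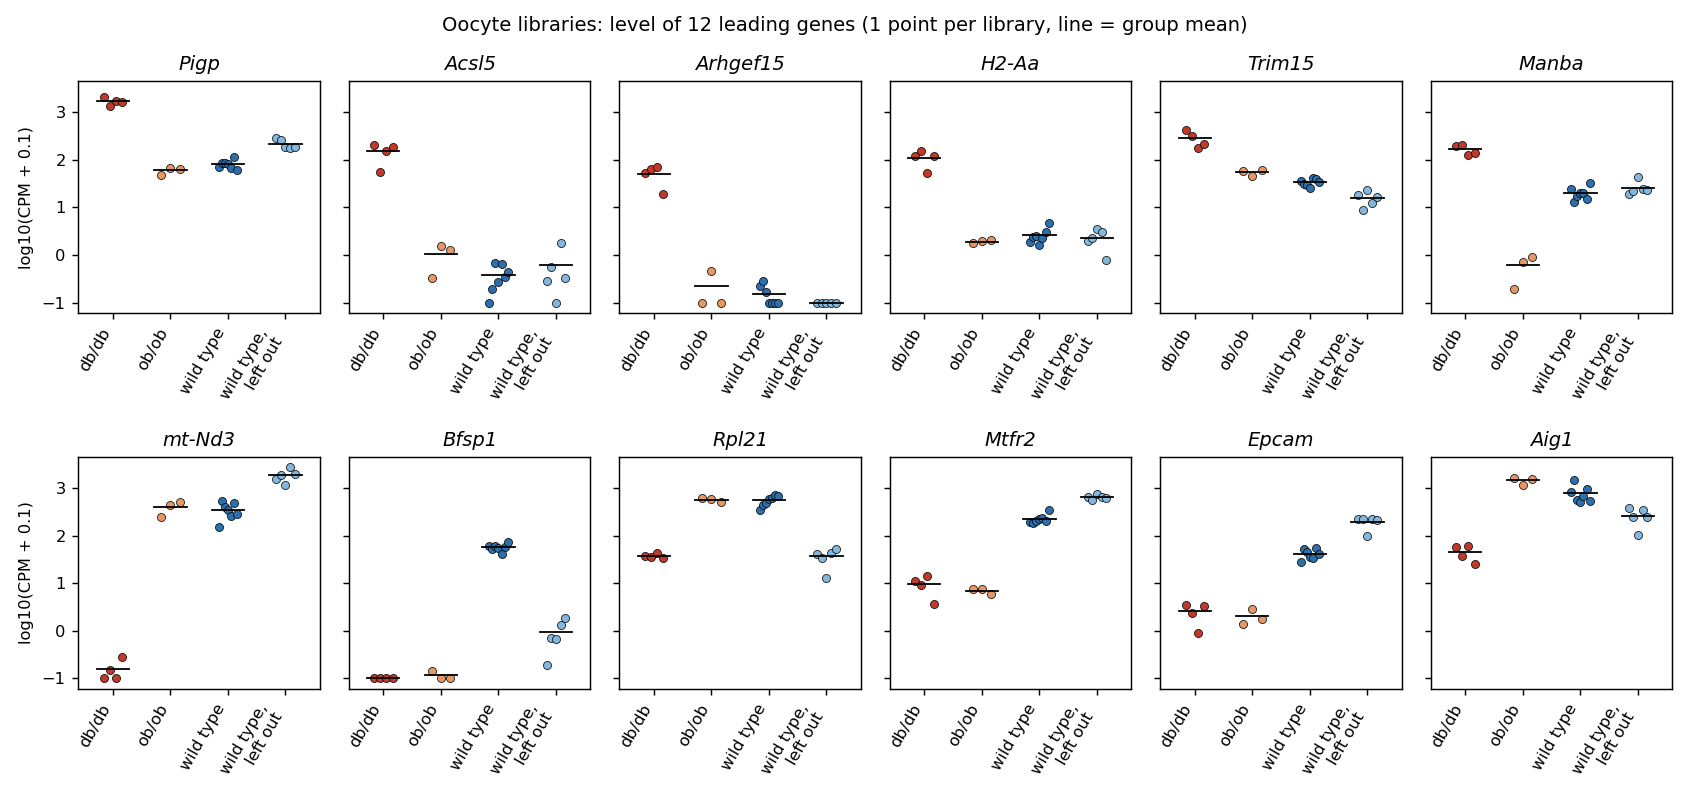
Levels of 12 leading or list genes in each oocyte library on a log10(CPM + 0.1) scale, for 4 db/db, 3 ob/ob, 7 wild type and 5 left-out wild type libraries, with a line at each group mean of the plotted values. Pigp, Acsl5, Arhgef15 and H2-Aa are high in db/db libraries alone among the 4 sets, whereas Mtfr2 and Epcam are low in both db/db and ob/ob libraries. Bfsp1 is low in those and also in the left-out wild type libraries.

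The 15 leading falls were chosen by the rule of the rises, so a lack of overlap between db/db and wild type was required. Among them, 3 genes had no UMI in any db/db oocyte. Bfsp1, a beaded filament protein of the eye lens, had 0 UMIs in the 36471470 db/db UMIs, which allows up to 0.0823 CPM, and 40.7 to 72.8 CPM in wild type with a median of 58.3 CPM, at least 729-fold lower in db/db against a floor of 3 UMIs over the group. Defa29, an alpha-defensin peptide gene with near-identical relatives, had 32.2 to 103.2 CPM in wild type, at least 669-fold lower in db/db. Spesp1, a protein named for the equatorial segment of sperm, had 23.1 to 43.1 CPM in wild type, at least 385-fold lower in db/db. These genes were also at or near 0 in ob/ob oocytes, where Bfsp1 had 0 to 0.0448 CPM, Defa29 0 and Spesp1 0 to 0.0448 CPM. In the left-out wild type libraries Bfsp1 had 0.0911 to 1.73 CPM, Defa29 1.15 to 15.7 CPM and Spesp1 0 to 2.87 CPM, so their high level was seen in the 7 kept wild type libraries. After thinning, 38.8% of wild type oocytes had a Bfsp1 UMI, against 1.30% of wild type somatic cells.

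The mitochondrial gene mt-Nd3 encodes a core subunit of respiratory complex I. It had 0, 0.0524, 0 and 0.179 CPM in db/db, 2 UMIs in all, and 151.5 to 541 CPM in wild type with a median of 345 CPM. The ratio of wild type to db/db was 6428, with a 95% counting interval of 1779 to 53080. After thinning, 0.565% of db/db and 93.1% of wild type oocytes had an mt-Nd3 UMI (unthinned 1.03% and 99.3%). The ob/ob libraries, of the same strain label as db/db, had 403 ± 137.3 CPM. Among the oocyte groups, mt-Nd3 was thus close to uncounted in db/db libraries and counted in every other library.

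A glutathione transferase and genes of fatty acid handling were among the falls. Gsto2, an omega-class glutathione transferase, had 2.92, 0.262, 0.316 and 0 CPM in db/db, against 53.2 to 101.2 CPM in wild type with a median of 71.0 CPM (log2 fold change -6.94 ± 0.59, adjusted p = 5.6e-07). Without b92, the db/db library where it was highest, the Gsto2 log2 fold change was -8.37. Slc27a2, a fatty acid transporter that also activates very long-chain fatty acids, had 0.265, 0.105, 0 and 1.25 CPM in db/db, against 16.6 to 33.3 CPM in wild type (log2 fold change -6.14 ± 0.60, adjusted p = 2.5e-06). It was -5.49 without b93 and -7.70 without b125. As the rule of choice required, neither gene overlapped between the groups. In ob/ob oocytes Gsto2 had 0 to 0.403 CPM and Slc27a2 0 to 0.366 CPM. Aig1, a membrane hydrolase of fatty acid esters, averaged 45.5 ± 16.6 CPM in db/db and 795 ± 348 CPM in wild type (log2 fold change -4.13 ± 0.36, adjusted p = 8.0e-07). Unlike Gsto2 and Slc27a2 it was high in ob/ob oocytes, at 1446 ± 233 CPM.

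Mtfr2, a regulator of mitochondrial fission, had 10.9, 9.12, 14.2 and 3.58 CPM in db/db and 187 to 349 CPM in wild type (log2 fold change -4.59 ± 0.33, adjusted p = 9.2e-08). Epcam, an adhesion molecule of epithelia and germ cells, had 3.45, 2.31, 0.790 and 3.22 CPM in db/db and 27.6 to 54.7 CPM in wild type (log2 fold change -4.12 ± 0.36, adjusted p = 7.4e-07). Sspn, or sarcospan, a part of the dystrophin complex, had 2.39, 2.25, 0 and 1.97 CPM in db/db and 27.3 to 54.4 CPM in wild type (log2 fold change -4.59 ± 0.48, adjusted p = 6.8e-06). As the rule of choice required, none of the 3 overlapped between the groups. Mtfr2 and Epcam were low in ob/ob oocytes as well, at 6.86 ± 0.994 CPM and 1.90 ± 0.810 CPM, whereas Sspn was at 53.1 ± 3.61 CPM. Surface epithelium markers, which like Epcam mark epithelia, were at 2.52 to 4.49 CPM in db/db and 3.51 to 24.8 CPM in wild type, and their part in the Epcam difference was not tested.

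The other falls were BC100530 (-6.94), AA465934 (-6.22), the kinase Stk32a (-6.06), the carbonic anhydrase-related protein Car8 (-5.17) and Mettl7a2 (-4.02 on the log2 scale). Mettl7a2 had 0, 0, 17.9 and 0 CPM in db/db and 32.4 to 135.6 CPM in wild type, so library b124 alone carried its db/db UMIs, and without it none was left. Mettl7a2 lost its call without db/db library b92 (adjusted p = 0.0636). Against ob/ob oocytes, where the mean was 35.6 ± 11.9 CPM, Car8 was lower in db/db (log2 fold change -6.04, adjusted p = 1.0e-05). The Car8 log2 fold change against wild type was -6.06 without b93. Of the 15 falls, 8 had an ob/ob mean below 1 CPM, and of the 15 rises 4 did. Of the falls, 13 still passed with all 12 wild type libraries, and BC100530 (adjusted p = 0.0584) and Mettl7a2 (0.125) did not.

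The comparison of db/db with ob/ob oocytes used the same 4 db/db libraries, so its values are given beside those above and add no independent test of them. Of 11568 genes tested, 220 (1.9%) passed. Pigp was higher in db/db than in ob/ob by 4.62 on the log2 scale (adjusted p = 4.0e-07), Acsl5 by 7.39 (adjusted p = 2.4e-05) and H2-Aa by 5.75 (adjusted p = 2.6e-06). Rpl21, a ribosomal protein gene with many processed copies in the genome, was lower in db/db (log2 fold change -4.17, adjusted p = 6.5e-08). Mtfr2 (log2 fold change 0.24, adjusted p = 0.867) and Epcam (0.14, adjusted p = 0.956) did not pass. Of the 1228 genes called against wild type, 1101 were tested against ob/ob, and a minority of these passed there in the same direction. With 4 against 3 libraries, a gene that did not pass is not shown to be alike in db/db and ob/ob. Bfsp1, Defa29, Spesp1, Gsto2 and Slc27a2 were among the called genes without a test there.

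Somatic libraries of the same genotypes share no library with the oocytes and hold mixed cell types. In 30 db/db against 31 wild type somatic libraries, 1329 of 11259 genes (11.8%) passed. Of the 1228 oocyte genes, 846 were tested there, and 155 passed in the same direction and 27 in the other. Of the 30 leading genes 18 were tested, and 3 passed in the same direction. These were mt-Nd3, Manba (log2 fold change 1.20, adjusted p = 0.034) and Ccdc28a (1.12, adjusted p = 0.0474). The level of mt-Nd3 was 1.41 ± 1.58 CPM in db/db and 454 ± 159.7 CPM in wild type somatic libraries (SD, n = 30 and 31; log2 fold change -8.29, adjusted p = 3.4e-30). Rpl21 had 143.7 ± 58.3 CPM in db/db and 1388 ± 371 CPM in wild type somatic libraries (log2 fold change -3.28, adjusted p = 3.3e-30). In oocytes Rpl21 had 33.3 to 42.5 CPM in db/db and 352 to 731 CPM in wild type. Both genes were therefore lower in db/db in either kind of library.

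The interaction of genotype with cell label passed for 18 of 16177 genes tested (0.111%) and for 4 of the 84 named genes, each with the larger difference in oocytes. Most of the 84 were named for their difference in oocytes, which favours that direction. The effect in oocytes minus that in somatic libraries was 8.18 on the log2 scale for Acsl5 (adjusted p = 2.5e-09), 3.79 for Pigp (adjusted p = 6.0e-04) and -5.28 for AA465934 (adjusted p = 0.0041). In somatic libraries Acsl5 had 69.7 ± 49.2 CPM in db/db and 42.4 ± 69.6 CPM in wild type, and Pigp 116.8 ± 222 CPM in db/db and 81.2 ± 30.9 CPM in wild type. For Pigp 1 db/db somatic library, b126, had 1248 CPM. Without b126 the Pigp mean was 77.8 CPM in db/db somatic libraries, and their median was 59.5 CPM, against a median of 74.1 CPM in wild type somatic libraries. For Acsl5 1 wild type somatic library, b41, had 403 CPM. Without b41 the Acsl5 mean was 30.4 CPM in wild type somatic libraries. The Acsl5 median was 48.3 CPM in db/db and 25.8 CPM in wild type somatic libraries. Wild type somatic cells thus expressed Acsl5 and Pigp, and the difference by genotype did not pass there (adjusted p = 0.122 and 0.216). For the ribosomal protein gene Rpl23 the difference of effects was -1.71 (adjusted p = 8.2e-05). It averaged 95.2 ± 26.5 CPM in db/db and 339 ± 48.9 CPM in wild type oocytes, against 1172 ± 333 CPM in db/db and 1359 ± 323 CPM in wild type somatic libraries.

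**Figure D4:**
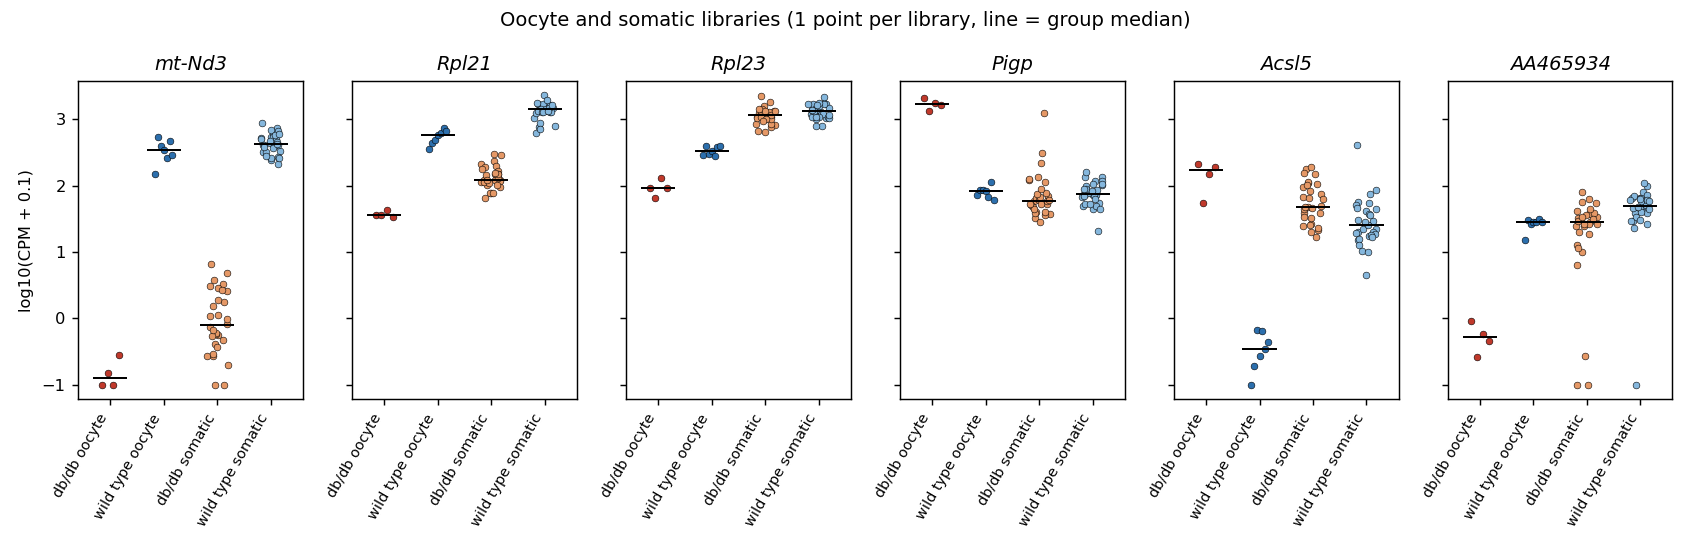
Levels of 6 genes on a log10(CPM + 0.1) scale in 4 db/db and 7 wild type oocyte libraries and in 30 db/db and 31 wild type somatic libraries, 1 point per library with a line at the group median. mt-Nd3 and Rpl21 are lower in db/db in both kinds of library, whereas Pigp and Acsl5 stand apart by genotype in oocytes.

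The lists of genes that follow are described by counts, beside the 9.5% called and the median of -0.05 over all genes. Called counts are from edgeR unless another tool is named. Over all genes DESeq2 called 15.1% (7.08% higher, 8.0% lower) and limma 9.45% (2.17% higher, 7.27% lower). Of 726 members of the lists tested with all 12 wild type libraries, 18 (2.48%) passed in the same direction, against 1.08% of all genes, among them Pigp, Acsl5, H2-Aa, H2-T22, Trim15, Manba and Msh5, which were higher, and mt-Nd3, Mtfr2, Slc27a2, Gsto2, Inpp4a, Pigf, Epcam, Sspn, Hormad1 and Trim61, which were lower. Genes of the leptin pathway were measured beside Lepr. Of 15 tested members 1 was higher and 2 were lower, with a median log2 fold change of 0.03. Jak2, the kinase that Lepr activates, averaged 107.9 ± 28.4 CPM in db/db and 95.6 ± 31.3 CPM in wild type, and Stat3, its main transcription factor, 92.5 ± 47 CPM in db/db and 88.9 ± 32 CPM in wild type. The inhibitor Socs3 averaged 6.47 ± 2.31 CPM in db/db and 6.29 ± 1.96 CPM in wild type. None of these 3 passed. The phosphatase Ptpn11 was higher by 0.72 on the log2 scale and the transcription factor Stat5a lower (log2 fold change -1.01). Ptpn11 missed the threshold without db/db library b92 or b124 (adjusted p up to 0.0835), and Stat5a without db/db library b92, b124 or b125 or without wild type library b3, b7, b21 or b58 (adjusted p up to 0.13). In the related insulin, PI3K and mTOR list, 1 of 32 members was higher and 3 were lower (median log2 fold change -0.03). DESeq2 called 4 higher and 4 lower, and limma 0 higher and 4 lower. The largest was Inpp4a, a phosphatase of PI3K lipid products, with 7.16, 4.04, 18.5 and 4.83 CPM in db/db and 64.2 to 208 CPM in wild type (log2 fold change -3.72 ± 0.46, adjusted p = 4.5e-05), or -4.44 without b124. Inpp4a was lower in db/db somatic libraries too (log2 fold change -1.84, adjusted p = 6.2e-04) and still passed with all 12 wild type libraries (adjusted p = 5.8e-04).

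Of 17 tested genes that import and activate fatty acids, 41.2% passed. In all 3 were higher (Acsl5, Fabp3 and Dbi) and 4 were lower (Slc27a2, Acsl4, Fabp5 and Cd36), with a median log2 fold change of -0.67. Acsl4, a synthetase that prefers arachidonic acid, averaged 13.5 ± 1.17 CPM in db/db and 34.1 ± 10.9 CPM in wild type (adjusted p = 0.00338). The importer Cd36 averaged 40.6 ± 5.63 CPM in db/db and 64.4 ± 11.9 CPM in wild type (adjusted p = 0.0387). The acyl-CoA binding protein Dbi averaged 665 ± 136.5 CPM in db/db and 434 ± 71.0 CPM in wild type (adjusted p = 0.0348). Members of the same step thus moved in opposite directions. Of 25 tested genes of mitochondrial fatty acid oxidation, 0 passed in edgeR, 3 had an unadjusted p under 0.05, DESeq2 called 1 and limma 2, at a median log2 fold change of -0.01. Of 18 lipid droplet genes 1 was higher and 1 lower. Pnpla3, a lipid droplet acyl hydrolase, averaged 780.3 ± 166 CPM in db/db and 333 ± 94.5 CPM in wild type (adjusted p = 0.00146), and had 1.14 ± 0.161 CPM in ob/ob oocytes. Gpat3, which starts glycerolipid synthesis, averaged 2.98 ± 2.05 CPM in db/db and 20.8 ± 6.27 CPM in wild type (adjusted p = 1.5e-04). Acsl5 (adjusted p = 7.9e-07) and Slc27a2 (0.00131) passed with all 12 wild type libraries, and Acsl4 (0.0502), Pnpla3 (0.189) and Gpat3 (0.187) did not.

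In cholesterol synthesis 4 of 26 tested members were higher and 0 lower in edgeR and in DESeq2, and at an unadjusted p under 0.05 the counts were the same. The median log2 fold change of the list was -0.20, and limma called 0 higher and 3 lower, so the direction was not the same under each tool. The 4 were Msmo1, Nsdhl, Ebp and Sc5d, enzymes that modify sterols, and 15 of the 26 members had log2 fold changes below 0. Sc5d averaged 111.6 ± 14.7 CPM in db/db and 55.7 ± 9.11 CPM in wild type (adjusted p = 0.00151), and Msmo1 38.7 ± 8.14 CPM in db/db and 24.5 ± 3.69 CPM in wild type (adjusted p = 0.0455). Squalene epoxidase, Sqle, averaged 18.1 ± 7.38 CPM in db/db and 20.9 ± 8.42 CPM in wild type and did not pass. Ebp missed the threshold without db/db library b92 (adjusted p = 0.0702), and Nsdhl without db/db library b92 or b93 or without wild type library b3 or b58 (adjusted p up to 0.145). The Sc5d log2 fold change with all 12 wild type libraries was -0.048 (adjusted p = 0.968).

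In GPI anchor synthesis 4 of 24 tested members passed (16.7%), of which 2 were higher (Pigp and Pgap2) and 2 lower (Pigf and Pyurf), with a median log2 fold change of -0.05. Among partners of Pigp in the same enzyme, Piga averaged 34.2 ± 5.41 CPM in db/db and 23.5 ± 10.3 CPM in wild type, Pigc 28.2 ± 4.62 CPM in db/db and 34.9 ± 6.24 CPM in wild type, and Pigq 34.9 ± 8.98 CPM in db/db and 39.2 ± 7.61 CPM in wild type. None of these partners passed, and they are not all of the subunits of the enzyme. Pgap2, which remodels the lipid of the anchor, averaged 34.9 ± 4.88 CPM in db/db and 17.4 ± 4.78 CPM in wild type (adjusted p = 0.0106).

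Mitochondrial genes besides mt-Nd3 and Mtfr2 were measured in 3 lists. All 10 tested transcripts of the mitochondrial genome had log2 fold changes below 0, with a median of -0.60, and 2 passed. DESeq2 called 2 lower and limma 1. In the library sums that were tested, mitochondrial UMIs made up 1.34% to 2.02% in db/db and 1.25% to 4.0% in wild type. Besides mt-Nd3 the transcript that passed was mt-Nd4, another complex I subunit. The mt-Nd4 level averaged 794 ± 166 CPM in db/db and 1627 ± 765 CPM in wild type (adjusted p = 0.037). It missed the threshold without db/db library b92, b93 or b124 or without wild type library b58 or b59 (adjusted p up to 0.116). With all 12 wild type libraries mt-Nd4 did not pass (adjusted p = 0.1745). Of 69 nuclear genes of oxidative phosphorylation 2 were higher and 3 lower (7.25% called), with 47 log2 fold changes above 0 and a median of 0.13. DESeq2 called 5 higher and 3 lower of these, and limma 0 higher and 4 lower. Among genes of mitochondrial dynamics and biogenesis 3 of 28 passed (10.7%). Cox5b, a subunit of cytochrome oxidase, averaged 274 ± 94 CPM in db/db and 517 ± 105.7 CPM in wild type, and was also lower in somatic libraries (log2 fold change -1.0, adjusted p = 1.6e-09). In oocytes Cox5b missed the threshold without db/db library b92 or b93 (adjusted p up to 0.0584). Dnm1l, the GTPase that divides mitochondria, averaged 513 ± 236 CPM in db/db and 236 ± 30 CPM in wild type (adjusted p = 0.00558). Its log2 fold change with all 12 wild type libraries was -0.21 (adjusted p = 0.885). In glycolysis and pyruvate use 3 of 28 members were higher and 1 lower, whereas DESeq2 called 4 higher and 2 lower and limma 0 higher and 2 lower. Mpc1, a subunit of the mitochondrial pyruvate carrier, averaged 94.8 ± 15.8 CPM in db/db and 51.5 ± 9.89 CPM in wild type (adjusted p = 0.00759).

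Of 76 tested ribosomal protein genes, 3 were higher and 16 lower (25% called), with a median log2 fold change of -0.16. Those with the smallest adjusted p were Rpl21 (log2 fold change -3.91 ± 0.24, adjusted p = 1.1e-08), Rpl23 (-1.84 ± 0.21, adjusted p = 1.8e-05) and Rps18 (-1.22 ± 0.23, adjusted p = 0.00303). Rpl21 had 36.6, 36.1, 42.5 and 33.3 CPM in db/db, against 352 to 731 CPM in wild type. It had 574 ± 54.1 CPM in ob/ob oocytes and 12.6 to 52.5 CPM in the left-out wild type libraries, which overlapped db/db. Most ribosomal protein genes have processed copies of near-identical sequence, and how shared reads were counted is not given in the sources used here, so these values are uncertain. The adjusted p with all 12 wild type libraries was 0.15 for Rpl21, 0.405 for Rpl23 and 0.766 for Rps18.

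Genes of glutathione and peroxide defence were called at 20% of 35 tested members, 2 higher and 5 lower, with a median log2 fold change of -0.17. Besides Gsto2, the falls were Gsto1, Gstp1, Gclm and Prdx3. Gclm, the modifier subunit of the enzyme that limits glutathione synthesis, averaged 47 ± 7.86 CPM in db/db and 88.8 ± 32.6 CPM in wild type (adjusted p = 0.0277). Prdx3, the mitochondrial peroxiredoxin, averaged 14.4 ± 4.60 CPM in db/db and 25.6 ± 2.64 CPM in wild type (adjusted p = 0.0344). The peroxiredoxin of the endoplasmic reticulum, Prdx4, averaged 12.6 ± 2.55 CPM in db/db and 5.39 ± 0.546 CPM in wild type (adjusted p = 0.00394). Gsto2 passed with all 12 wild type libraries (adjusted p = 3.7e-04) and Prdx4 did not (0.195). In the unfolded protein response 1 of 25 members passed (Pdia6, lower). At an unadjusted p under 0.05 the counts there were 2 higher and 6 lower, DESeq2 called 0 higher and 4 lower, and limma 0 higher and 5 lower. In lysosome and autophagy 2 of 32 passed (Manba and Atg5, higher).

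Genes that define the oocyte were measured in 3 lists. Of 20 growth factor and zona genes 0 passed in edgeR, 7 had an unadjusted p under 0.05, DESeq2 called 1 and limma 8, at a median log2 fold change of -0.23. Gdf9, a growth factor that the oocyte sends to granulosa cells, averaged 2598 ± 457 CPM in db/db and 3028 ± 429.8 CPM in wild type, and its partner Bmp15 779.8 ± 185 CPM in db/db and 1296 ± 483 CPM in wild type (adjusted p = 0.0775). The zona protein Zp3 averaged 5032 ± 1078 CPM in db/db and 5115 ± 1397 CPM in wild type. Of 24 maternal effect genes 1 passed (Nlrp9b, lower), while DESeq2 called 1 higher and 3 lower and limma 0 higher and 4 lower. Dppa3, which protects the maternal genome from demethylation, averaged 9135 ± 512 CPM in db/db and 8987 ± 3726 CPM in wild type. Of 19 oocyte transcription factors 1 passed (Sall4, lower), at a median log2 fold change of -0.43. At an unadjusted p under 0.05 the counts were 1 higher and 10 lower, DESeq2 called 1 higher and 5 lower, and limma 0 higher and 4 lower. Sall4 missed the threshold without db/db library b92, b93, b124 or b125 or without wild type library b3 (adjusted p up to 0.117), and Nlrp9b without db/db library b92, b93 or b125 or without wild type library b8 or b59 (adjusted p up to 0.108). Among 21 genes of DNA methylation and imprint protection, Kdm1b and Setdb1 were lower. Kdm1b, a histone demethylase needed for maternal imprints, averaged 139.4 ± 31.1 CPM in db/db and 283 ± 61.4 CPM in wild type (adjusted p = 0.00485), and ob/ob oocytes had 130.6 ± 20.5 CPM. Setdb1 missed the threshold without db/db library b92, b93 or b125 or without wild type library b3, b7, b8, b13, b58 or b59 (adjusted p up to 0.16). Kdm1b did not pass with all 12 wild type libraries (adjusted p = 0.141).

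Regulators of meiotic arrest and resumption included 4 higher and 2 lower members of 27 (22.2% called; median log2 fold change 0.04). The higher members were Aurkc, Ccnb2, Plk1 and Mad2l1, and the lower ones Wee1 and Prkaca. Aurkc, the aurora kinase of meiosis, had 313, 328, 296 and 299 CPM in db/db, against 93.5 to 184 CPM in wild type (log2 fold change 1.03 ± 0.18, adjusted p = 0.00185). Ccnb2, a cyclin that activates Cdk1, had 823, 705, 822 and 665 CPM in db/db, against 308 to 584 CPM in wild type (log2 fold change 0.83 ± 0.18, adjusted p = 0.00879). Neither gene overlapped between the groups. The catalytic subunit of protein kinase A, Prkaca, which holds meiotic arrest, averaged 10.2 ± 5.33 CPM in db/db and 24.9 ± 10.4 CPM in wild type (adjusted p = 0.0341). Mad2l1 missed the threshold without db/db library b92 or b124 or without wild type library b8 or b13 (adjusted p up to 0.0995). Neither Aurkc (adjusted p = 0.997) nor Ccnb2 (0.679) passed with all 12 wild type libraries. In the left-out wild type libraries Aurkc had 240 to 682 CPM and Ccnb2 591 to 881 CPM, which overlapped db/db. Mad2l1 had 1260 to 1848 CPM there, above the 610 to 838 CPM of the db/db libraries.

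Of 22 genes of meiotic chromosomes and DNA repair, Msh5 and Brca2 were higher and Hormad1 lower (median log2 fold change -0.15). Hormad1, a protein of the meiotic chromosome axis, had 1.06, 1.26, 1.74 and 2.15 CPM in db/db, against 12.5 to 20.2 CPM in wild type (log2 fold change -3.33 ± 0.32, adjusted p = 2.0e-06), and 2.22 ± 1.1 CPM in ob/ob. Msh5, which stabilizes crossover intermediates, had 11.4, 11.7, 5.37 and 12.2 CPM in db/db, against 1.15 to 3.41 CPM in wild type (log2 fold change 2.29 ± 0.35, adjusted p = 5.1e-04), and 1.20 ± 0.954 CPM in ob/ob. Hormad1 and Msh5 did not overlap between db/db and wild type and passed with all 12 wild type libraries (adjusted p = 7.4e-04 and 0.0398). Brca2 missed the threshold without db/db library b92, b93 or b124 or without wild type library b8, b13, b21, b58 or b59 (adjusted p up to 0.192). Among 18 genes of the piRNA pathway, which silences transposons in germ cells, 4 were lower and 0 higher in edgeR (22.2% called; median log2 fold change -0.56). At an unadjusted p under 0.05 the counts were 3 higher and 7 lower, DESeq2 called 1 higher and 5 lower, and limma 0 higher and 6 lower. The 4 genes were Ddx4, Mael, Piwil2 and Tdrkh. The germ cell helicase Ddx4 averaged 64.4 ± 11.8 CPM in db/db and 131.6 ± 36.5 CPM in wild type (adjusted p = 0.00991), and Piwil2 2.07 ± 1.05 CPM in db/db and 7.20 ± 2.80 CPM in wild type (adjusted p = 0.0116). Tdrkh missed the threshold without db/db library b93 (adjusted p = 0.055). Ddx4 (adjusted p = 0.324) and Piwil2 (0.68) did not pass with all 12 wild type libraries. In storage and decay of maternal RNA, 1 of 27 genes was higher (Zcchc6) and 1 lower (Ddx6), and each missed the threshold when single libraries were left out, Zcchc6 without db/db library b92 (adjusted p = 0.0683) and Ddx6 without db/db library b92, b93, b124 or b125 or without wild type library b3 or b8 (adjusted p up to 0.125).

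In the list of adhesion and gap junctions 1 of 24 members was higher (Daam1) and 4 were lower, Epcam, Sspn and Myo10 among them, with a median log2 fold change of -0.27. Myo10, the myosin that builds filopodia, averaged 19 ± 3.65 CPM in db/db and 52.4 ± 16.9 CPM in wild type (adjusted p = 0.00252). It had 80.6 ± 13.5 CPM in ob/ob oocytes and lost its call with all 12 wild type libraries (adjusted p = 0.55). Among TRIM genes 2 of 28 were higher (Trim15 and Trim23) and 1 lower. The lower one, Trim61, which has close relatives in the genome, averaged 130.1 ± 58.1 CPM in db/db and 985 ± 163 CPM in wild type (log2 fold change -2.92 ± 0.26, adjusted p = 8.8e-07). Trim23 missed the threshold without db/db library b92, b93 or b124 or without wild type library b3, b8, b13, b21 or b58 (adjusted p up to 0.252). Of 11 tested histocompatibility genes, H2-Aa and H2-T22 were higher and H2-T10 lower. H2-T22 had 67.9, 60.6, 28.9 and 44.9 CPM in db/db, against 15.8 to 28.9 CPM in wild type, while H2-T10 had 0, 4.88, 71.9 and 0.358 CPM in db/db, against 131.8 to 209 CPM in wild type. H2-T10 missed the threshold without db/db library b92 or b93 or without wild type library b58 (adjusted p up to 0.0973). The 2 genes are close copies of each other, so the split of reads between them is uncertain. Of 12 interferon response genes 2 passed (Isg20 and Bst2, lower). Isg20 missed the threshold without db/db library b93 or b124 (adjusted p up to 0.0628), and Bst2 without db/db library b92, b93 or b124 or without wild type library b8, b13, b21 or b58 (adjusted p up to 0.107). In apoptosis and survival 1 of 25 genes was higher (Bik) and 3 were lower, Casp9 and Cycs among them, and DESeq2 called 1 higher and 7 lower. Bik, a pro-apoptotic protein, averaged 140.7 ± 31.9 CPM in db/db and 66.4 ± 21.1 CPM in wild type (adjusted p = 0.00975), and 25.5 ± 3.34 CPM in ob/ob. Cycs missed the threshold without db/db library b92, b93 or b125 (adjusted p up to 0.0801).

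**Figure D5:**
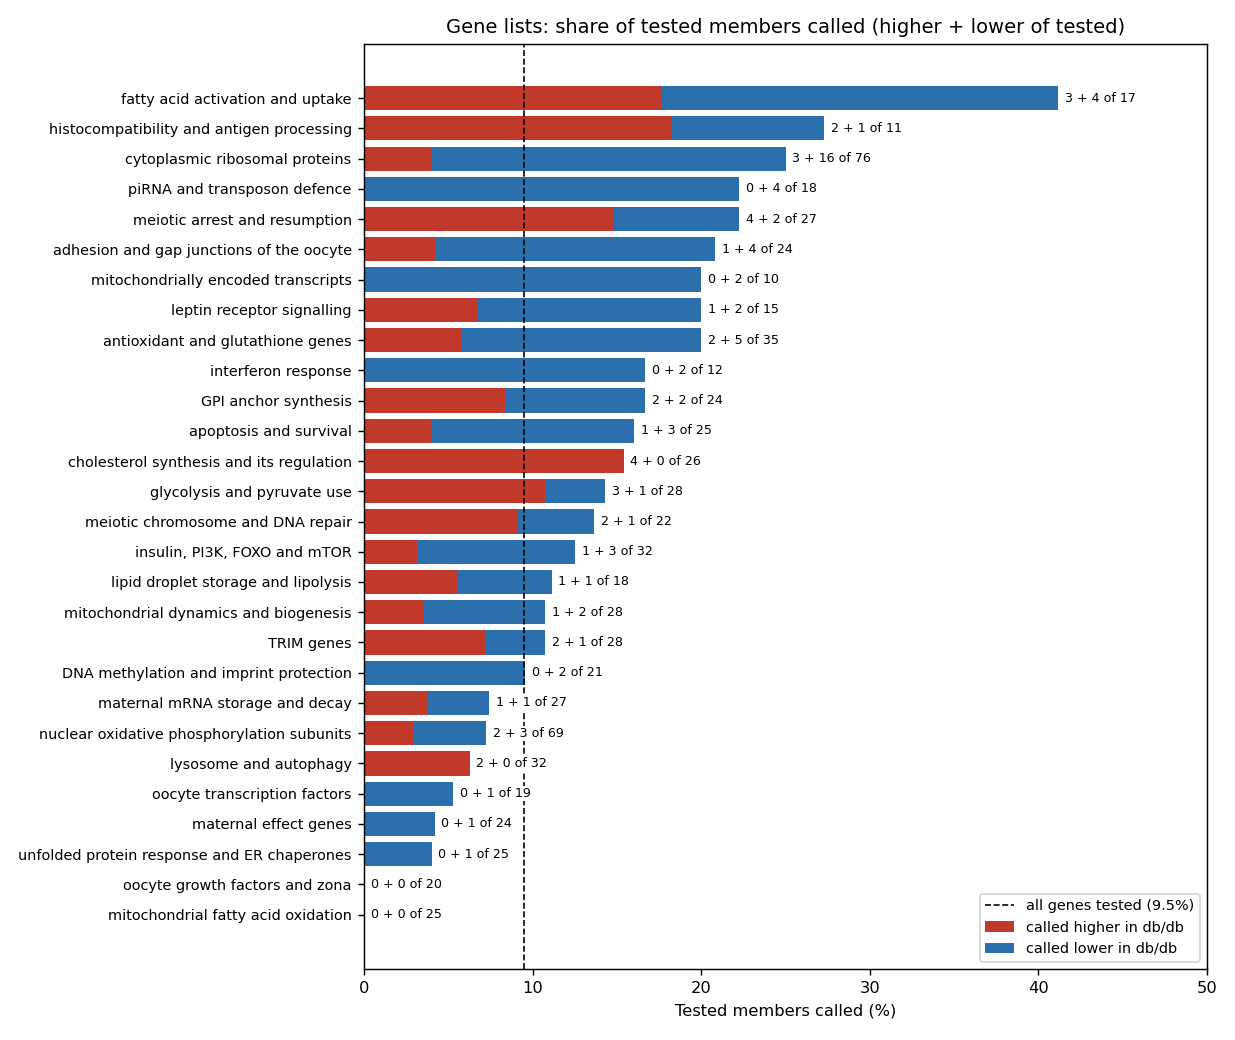
Share of tested members that passed in each of 28 gene lists, higher in db/db oocytes in red and lower in blue, with the dashed line at the 9.5% of all genes tested and the counts higher and lower beside each bar. Fatty acid activation and uptake is at the top with 3 higher and 4 lower of 17, and growth factor and zona genes and mitochondrial fatty acid oxidation are at 0 in edgeR.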

How the data were processed

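Per the labels' protocols, hand-picked single ovary cells were lysed, reverse transcribed from poly(A) RNA with cell barcodes and sequenced on an Illumina HiSeq X-Ten. The authors deposited raw UMI counts per gene and cell, all whole numbers in the columns read. The build named is mm9, per the submitters' processing notes, and an aligner, a counter or an annotation is not given in the sources used here. Of 13254 cell columns 7013 were read, and 6241 were not used. Of 24579 rows, 92 ERCC and 3 RGC rows were left out of totals and tests. Mitochondrial rows named by transcript ID were paired with gene names (37 of 37). No 2 cells of the oocyte libraries had identical counts.

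A cell needed 1000 genes and 3000 UMIs to enter the sum of its library. Genes passing filterByExpr entered a quasi-likelihood fit in edgeR 4.0.16 (R 4.3.3) with TMM scaling, 4 db/db against 7 wild type libraries, with Benjamini-Hochberg adjustment over all genes and a threshold of 0.05. An adjusted p in the text comes from this test unless another is named. The ob/ob fit, the somatic fit and the interaction fit were separate, and levels of ob/ob and left-out libraries come from a joint scaling of all oocyte libraries. Fold changes are log2 of db/db over wild type. Cell measures were compared by exact permutation over libraries. The named genes were the 15 largest rises and 15 largest falls (adjusted p under 0.05, no overlap, at least 20 CPM in the higher group, predicted genes left out), per list up to 3 called members of smallest adjusted p, and also Lep and Lepr. Other list members were named by their function after their values were seen. A few genes that the rule names are not reported here. The libraries, lists and tests were chosen with earlier results of these data known. Simulated counts tested the fit. Intervals and floors cover counting error only. Alternatives were DESeq2 1.42.0 size factors and Wald test, limma 3.58.1 on log2 of the mean CPM of cells, other filters, thinning and leaving out libraries.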

Additional observations from a re-analysis of the deposited data

Results flagged for a closer look

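In 15 of 167 groups of library values looked at (8.98%; chance gives about 1 in 20), 1 library stood apart from the others of its group by the ratio of its gap to the group's range. In db/db oocytes library b124 stood apart for 5 genes. It was highest for Mettl7a2 (ratio 1; 17.9 CPM, against 0 in the other db/db libraries), H2-T10 (ratio 0.932; 71.9 CPM, against 0 to 4.88 CPM), Trim23 (ratio 0.963; 12.6 CPM, against 3.98 to 4.30 CPM) and Brca2 (ratio 0.850; 336 CPM, against 198 to 219 CPM). It was lowest for Msh5 (ratio 0.889; 5.37 CPM, against 11.4 to 12.2 CPM). In db/db library b93 Sall4 was highest (ratio 0.846; 252 CPM, against 185 to 195 CPM).

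In wild type oocytes library b7 was highest for Ccdc28a (ratio 0.605; 31.3 CPM), Ddx6 (0.693; 100.7 CPM) and Ptpn11 (0.587; 127.2 CPM). Library b13 was highest for Gstp1 (0.577; 22.9 CPM) and Pigf (0.689; 13.6 CPM). Library b58 was highest for Defa29 (0.698; 103.2 CPM) and library b59 for Mtfr2 (0.685; 349 CPM). The lowest wild type values that stood apart were AA465934 in library b3 (0.707; 15.1 CPM) and Tfb1m in library b21 (0.598; 5.55 CPM).

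The db/db effect differed between oocytes and somatic libraries, by the interaction test of edgeR, for 4 of the 84 named genes. Over all genes 18 of 16177 (0.111%) passed. Most of the 84 were named for their difference in oocytes, which favours a larger effect there. The effect in oocytes minus that in somatic libraries was 8.18 for Acsl5 (adjusted p = 2.5e-09), 3.79 for Pigp (adjusted p = 6.0e-04), -5.28 for AA465934 (adjusted p = 0.0041) and -1.71 for Rpl23 (adjusted p = 8.2e-05) on the log2 scale.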

How the results depend on the processing

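Of the genes tested, 9.5% were called, 4.41% higher and 5.09% lower in db/db oocytes (1228 genes). DESeq2's Wald test called 15.1% (1949 genes), 7.08% higher and 8.0% lower, and limma called 2.17% higher. With all 12 wild type libraries 1.08% were called (0.298% higher, 0.78% lower), and 140 of the 1226 calls tested there remained. Without libraries b92 and b93 the share was 2.31% (316 genes; 0.915% higher, 1.4% lower), and without b124 and b125 it was 4.51% (618 genes; 2.53% higher, 1.98% lower). In an alternative chosen after seeing the data, with each cell thinned to 10000 UMIs, fewer genes could be tested and 653 were called (12%; 6.32% higher, 5.65% lower). Leaving out each library in turn gave 4.93% to 10.7% (656 to 1373 genes), 2.04% to 5.21% higher and 2.87% to 5.51% lower. Size factors of DESeq2, a stricter cell filter, no filter on low counts, oocyte-led cells, library thinning and leaving out libraries b58 and b59 kept each count within 1.5 times.

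The difference in mitochondrial percent, which did not pass, changed sign to -0.67 with the library mean over cells, -0.016 with the stricter cell filter and -4.85 with all 12 wild type libraries. With each library left out it ran from -0.49 to 0.68. The difference in UMIs per ERCC UMI ran from -47.3 to 146.6 with each library left out, that in UMIs per cell from -49761 to -5477 and that in genes per cell from -2229.5 to -477. With all 12 wild type libraries the log2 fold changes of Zcchc6 (-0.41), Mad2l1 (-0.60), Brca2 (-0.55), Sc5d (-0.048) and Dnm1l (-0.21) turned negative, and with limma that of Ebp did (-0.039). The cause was not tested. Of 84 named genes 60 passed with each library left out in turn and 24 missed the threshold without at least 1 library.

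The alternative that adds db/db libraries of mixed cells was not run, since their 3 and 1 oocyte-led cells were under the minimum of 5. No paired analysis was possible because the labels give the groups no shared replicate numbers. At the depth of 4 against 7 libraries, many changes of 1 on the log2 scale would be missed.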
